A study of Mus musculus with 48 samples.

Results

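The 79 cDNA clones described here read lower after 36 h of drug treatment than after 6 h in both lines of a pair of murine erythroleukemia (MEL) cell lines. A clone was a member if its mean difference over 3 drugs, 36 h minus 6 h, was -1 or lower on the log2 scale in each line, lay below 0 under each drug in each line, and differed between the lines by less than 0.6. The rule was met by 79 of 19817 clones that had a value in all 12 conditions (0.399%), out of 22171 clones listed on any array. A value is the log2 intensity of a spot minus the median of its channel in the same deposited file, so it says how bright a clone was relative to the other clones on that array. The members were thus chosen by their measured 6 h and 36 h values, so the 36 h minus 6 h differences are given as a description, and each comparison below is tested on the 12 h and 24 h arrays alone, which the rule did not use.

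HD-MEL cells (HD below) differentiate readily when induced and LD-MEL cells (LD below) do so poorly. Each line is 1 clone of the same parental line, T-3-Cl-2-0.fl. Both were grown for 6, 12, 24 or 36 h with trichostatin A (TSA) at 15 nM, hexamethylene bisacetamide (HMBA) at 3.0 mM or dimethyl sulfoxide (DMSO) at 1.0%, and no untreated cells are part of these data. Each of the 12 conditions was read on 4 technical 2-colour arrays, 48 in all, with total RNA of both lines on the same spots. The 4 arrays of a condition share 1 pair of RNA extracts, so a test over conditions measures the spread between drugs and times, not between cultures.

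MEL cells are erythroid precursors transformed by Friend virus and arrested before terminal differentiation. In culture, DMSO, HMBA and histone deacetylase inhibitors such as TSA induce them to accumulate hemoglobin and to leave the cell cycle over the following days. DMSO is an inducer in this system and not merely a solvent. Genes that serve proliferation are in general repressed as erythroid cells mature, while globin and heme synthesis genes are induced. The files name clones by library plate, row and column only, and nothing used here pairs a clone with a gene, so no member has a gene name, a pathway or a sequence below, and the erythroid state of the cells was not checked against marker genes.

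The members were measured on nearly all arrays. Of the 79, 65 had a value on all 48 arrays, and the least measured had 40 arrays. Their median raw intensities lay between 241 and 8231, with a median of 934 over members, and 0 of their 7524 values reached 65000, near the top of the scale. On 3 arrays the members as a group stood apart from the other arrays of the condition. Their median was -0.87 in HD on DMSO 24 h array 3, against 0.72 to 0.96 on the other arrays. In LD it was 0.67 on HMBA 36 h array 4, against -0.18 to -0.15, and 0.33 on TSA 36 h array 2, against -0.14 to -0.06. Without these 3 arrays the rule was met by 162 clones, 83 in array part 2 and 79 in array part 1, and all 79 members were among them. The HMBA and TSA arrays were picked because the members read high there at 36 h, so leaving them out lowers the members' 36 h means. That all 79 stayed is therefore largely built in and does not measure stability. The DMSO 24 h array does not enter the rule.

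The differences that chose the members were of similar size in both lines, as the rule required by its limit of 0.6 on the line difference. Over the 79 clones, 36 h minus 6 h had a median of -1.14 in HD (range -1.95 to -1.001) and of -1.13 in LD (range -1.83 to -1.004), against medians of 0.02 in HD and 0.01 in LD over all clones. By drug the member medians were -1.16 in HD and -0.88 in LD under TSA, -0.91 in both lines under HMBA, and -1.51 in HD and -1.71 in LD under DMSO. The larger DMSO values went with a high start. At 6 h the member median was 0.80 in HD and 0.91 in LD under TSA and 0.84 in HD and 0.82 in LD under HMBA, whereas under DMSO it was 1.92 in HD and 2.11 in LD. On the 4 DMSO 6 h arrays the HD medians were 1.83, 2.12, 1.61 and 2.15 and the LD medians 2.09, 2.27, 1.69 and 2.10. At 36 h the same medians were -0.40 in HD and -0.0008 in LD under TSA, 0.03 in HD and -0.04 in LD under HMBA, and 0.27 in HD and 0.14 in LD under DMSO. The member medians thus lay above the centre of the array at 6 h under every drug and nearer to it at 36 h, while single members spread widely, with HD quartiles at 36 h of -1.08 and 0.51 under TSA and -0.70 and 1.30 under DMSO.

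**Figure D1:**
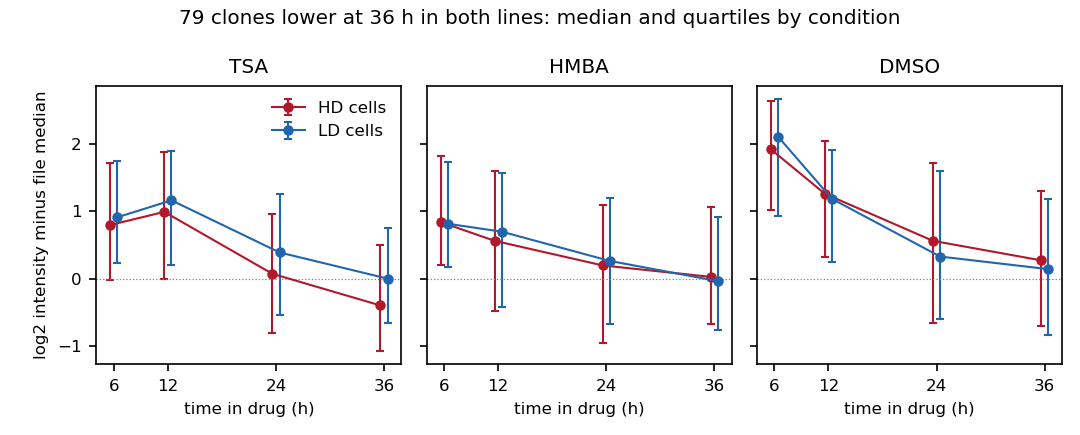
Median (points) and quartiles (bars) over the 79 clones of log2 intensity minus the file median (vertical axis), by time in drug in hours (horizontal axis), for HD cells (red) and LD cells (blue) under TSA, HMBA and DMSO. Under DMSO the medians start at 1.92 (HD) and 2.11 (LD) at 6 h, and under TSA they are no lower at 12 h than at 6 h.

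The threshold cut through a continuous range. The 3 members nearest to it were H3008C11 (-1.001 in HD and -1.06 in LD), H3016C10 (-1.003 in HD and -1.18 in LD) and H4039C05 (-1.07 in HD and -1.004 in LD). Just outside lay H3016G09 and H3131H03, at -0.999 in HD, and H3150B05, at -0.998 in LD. Setting the threshold at -0.8 gave 308 clones, and setting it at -1.2 gave 14. In HD alone 196 clones had a mean difference of -1 or lower (0.989% of those tested), and in LD alone 152 did (0.767%).

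The clone furthest below its 6 h level was H4064C11, at -1.95 in HD and -1.54 in LD as the mean over drugs. Under DMSO its HD values at 36 h were -1.06, -0.84 and -1.16 on the 3 arrays that measured it, against 2.95, 2.06 and 3.13 at 6 h. LD values of the same spots were -1.30, -0.60 and -0.49 at 36 h, against 3.14, 1.53 and 3.10 at 6 h. The 36 h and 6 h arrays did not overlap in either line. Under TSA the same clone read -0.69 in HD at 36 h, against 0.01 at 6 h, and 0.21 in LD at both times. Most of its mean difference therefore came from DMSO and HMBA.

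H4040D10 had mean differences of -1.43 in HD and -1.40 in LD. In HD under DMSO its arrays read -0.79, -0.36, -1.19 and 0.16 at 36 h, against 1.79, 2.12, 1.48 and 2.19 at 6 h. LD values of H4040D10 under DMSO were -1.205, -1.202, -0.55 and 0.09 at 36 h, against 1.99, 2.44, 1.58 and 2.10 at 6 h. Again no 36 h array reached any 6 h array. Under TSA its HD values were -0.49, -0.95, -0.25 and -1.05 at 36 h, against 0.21, 0.69 and 0.65 at 6 h, and these too did not overlap. Under HMBA the 36 h values in HD were -0.09, -0.36, -0.73 and 0.46, against 0.67, 0.23, 0.82 and 0.13 at 6 h, and there the array numbered 4 overlapped the 6 h range.

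The other 2 of these 4 clones varied between arrays by more than their mean difference. H4064C11 did so as well in HD at HMBA 6 h and 12 h, and H4040D10 in HD at DMSO 24 h (-3.96 to 0.31). H4076A01 had mean differences of -1.51 in HD and -1.83 in LD. Its HD values at HMBA 6 h were -0.94, 2.51, -3.40 and 2.64, and at HMBA 36 h they were -1.03, -1.16, -1.84 and 3.201. H4056C07, at -1.52 in HD and -1.50 in LD, read 3.22, 0.76, 2.54 and 0.29 in HD at DMSO 36 h, against 2.29, 2.18 and 2.88 at DMSO 6 h. For both clones single arrays of 1 condition lay over 2 log2 units apart, and the 4 technical arrays do not settle their level.

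**Figure D2:**
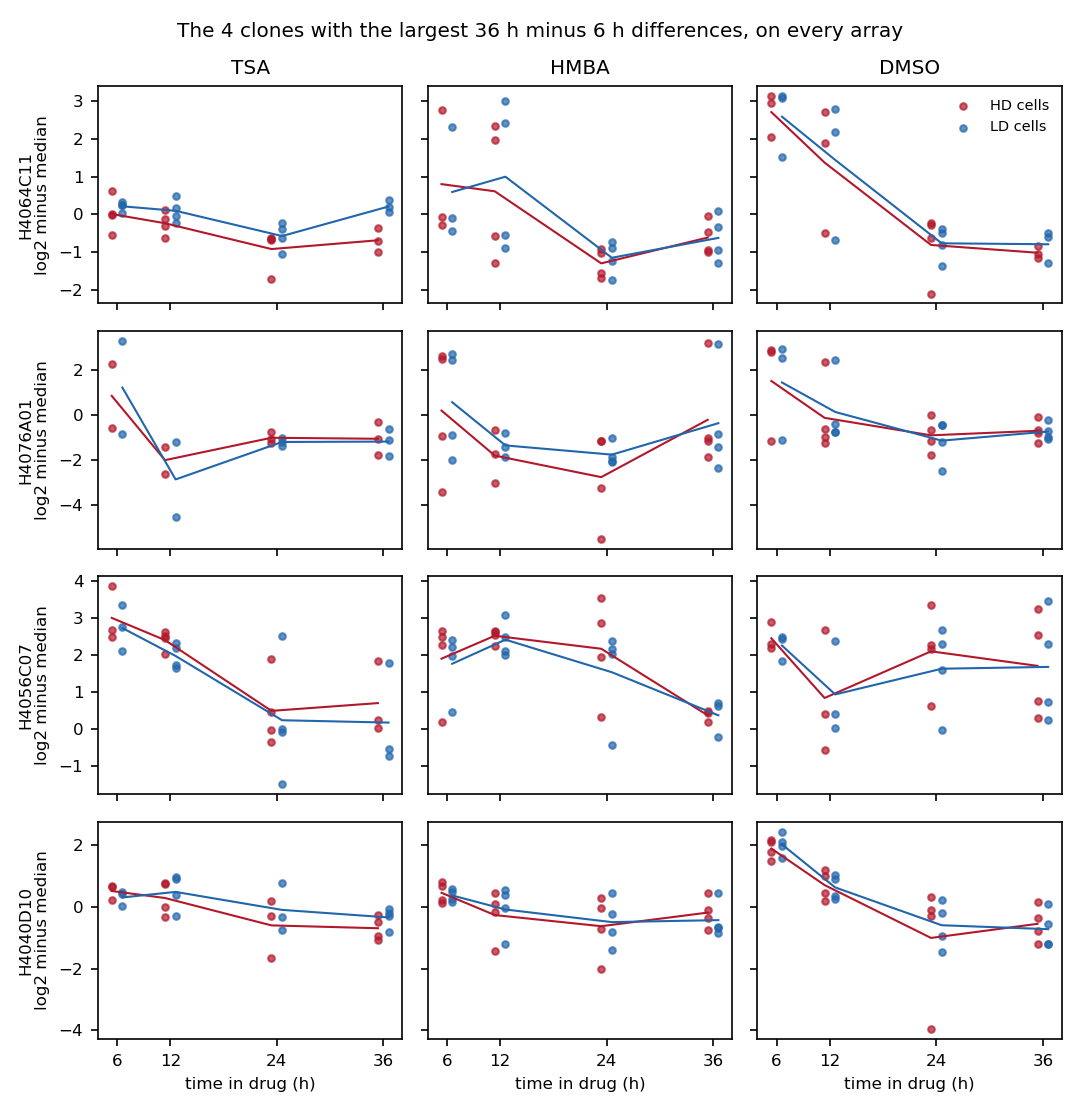
Log2 intensity minus the file median (vertical axis) on each array (points) against time in drug in hours (horizontal axis) for the 4 clones with the largest differences between 36 h and 6 h, with the condition means (lines), for HD cells (red) and LD cells (blue), under TSA, HMBA and DMSO in columns. H4040D10 separates all 36 h arrays from all 6 h arrays under DMSO, while H4076A01 and H4056C07 scatter widely within conditions. H4064C11 scatters widely at HMBA 6 h and 12 h.

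The 12 h and 24 h arrays show the members where the rule had not looked. In HD the members' 24 h minus 12 h difference, averaged over drugs, had a median of -0.55, and 78 of the 79 lay below 0, against a median of -0.05 over all 19817 clones. In LD the median was -0.52, with 72 of 79 below 0, against -0.02 over all clones. Of all 19817 clones, 11328 lay below 0 in HD and 10577 in LD. No single clone passed the test. With limma and Benjamini-Hochberg adjustment over all clones, 0 members and 0 of 19817 clones (0%) were called in HD or in LD, and the lowest adjusted p of a member was 0.745 in HD and 0.526 in LD. At an unadjusted p under 0.05, 36 of the 79 members were lower in HD, where 815 of all clones were (4.11%), and 40 were lower in LD, where 810 of all clones were (4.09%). No member was higher at that level in either line, where 2.28% of all clones were in HD and 2.88% in LD.

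The fit had 6 condition values and 2 residual degrees of freedom, and the median 95% interval of a member reached 0.58 to either side of its estimate in HD and 0.53 in LD. The absence of calls depended on the processing. Without the dimmest 25% of clones, limma called 21 of the 79 members lower in HD, against 64 of 14863 clones (0.431%), and 8 lower in LD, against 33 clones (0.222%). With every clone kept and an offset of 50 added to the intensities, it called 12 members lower in HD (0.131% of all clones) and 6 in LD (0.0757%), and with arrays 3 and 4 turned it called 6 lower in HD (0.0606%). Without the 3 arrays that stood apart, the members' medians were -0.52 in HD, with 71 of 79 below 0, and -0.50 in LD, with 70 of 79 below 0.

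The lines cannot be read as independent repeats, since each spot carries RNA of both. Over the 79 members, the HD and LD differences between 24 h and 12 h had a Pearson r of 0.90, and over all 19817 clones an r of 0.15. These are descriptions across clones, which share arrays and spots. The rule also limited the line difference of members to less than 0.6 between 36 h and 6 h. Members of the array parts, given below, had unlike 24 h minus 12 h differences in both lines. What set the r of members apart from that of all clones was not tested.

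**Figure D3:**
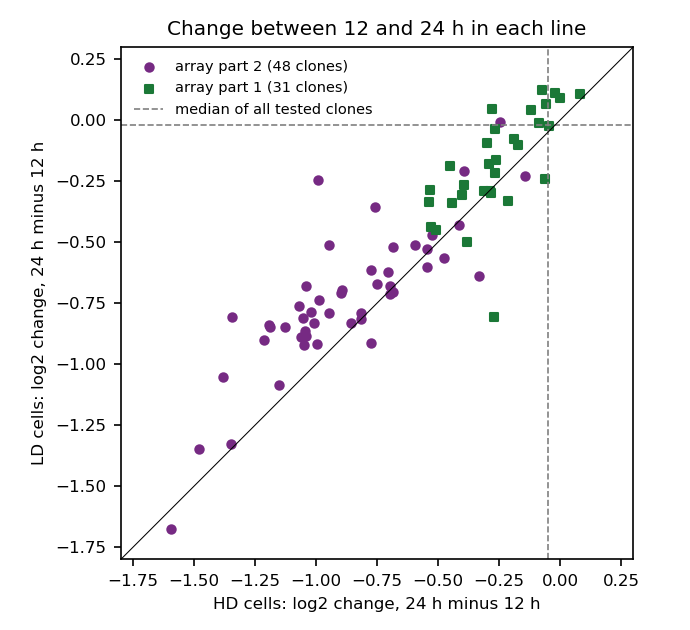
Log2 change from 12 h to 24 h (24 h minus 12 h, mean of 3 drugs) in HD cells (horizontal axis) against LD cells (vertical axis) for each of the 79 clones, in array part 2 (purple circles, 48 clones) and array part 1 (green squares, 31 clones), with the medians of all tested clones dashed and the line of equal change solid. Nearly all members lie below both medians, and those of part 2 lie furthest out.

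The member with the lowest p in both lines was H4068C07. Its 24 h minus 12 h difference was -1.48 in HD (95% interval -1.94 to -1.02, adjusted p = 0.745 in limma) and -1.35 in LD (-1.81 to -0.89, adjusted p = 0.526 in limma). In HD it averaged -0.71 ± 0.61 at 24 h under TSA, against 0.96 ± 1.14 at 12 h (SD over 4 arrays). Under HMBA the HD means were -1.16 ± 1.24 at 24 h and 0.06 ± 0.89 at 12 h, and under DMSO they were -1.58 ± 1.11 at 24 h and -0.04 ± 0.60 at 12 h. The 24 h means lay below the 12 h means under all 3 drugs, and the HD arrays overlapped under HMBA and TSA but not under DMSO, where the highest 24 h array read -0.96 and the lowest 12 h array -0.86. In LD the arrays overlapped under DMSO too, with a highest 24 h array at -0.14 and a lowest 12 h array at -0.69.

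H4060H11 and H4064C05 followed the same course. H4060H11 had a difference of -1.38 in HD and -1.05 in LD between 24 h and 12 h, and H4064C05 one of -1.35 in HD and -1.33 in LD. H4022C07 and H4037C08, which were brighter, had differences of -1.05 and -1.04 in HD, and of -0.87 and -0.88 in LD. In HD under TSA, H4022C07 read 1.34, 1.64, 0.72 and 0.31 at 6, 12, 24 and 36 h. Under HMBA its HD course was 1.49, 1.30, 0.24 and 0.02, and under DMSO it was 2.20, 1.95, 0.80 and 1.05. H4057A07 differed by -0.997 in HD and -0.92 in LD. H4064C11, the clone with the largest difference between 36 h and 6 h, also had the largest estimates here among the named clones, at -1.60 in HD and -1.68 in LD. In both lines the differences of these 7 clones lay below 0 under all 3 drugs.

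Other clones with large differences between 36 h and 6 h were not lower at 24 h than at 12 h by any clear amount. H3088E08 had a 24 h minus 12 h difference of -0.0005 in HD and 0.09 in LD, and H3098H04 one of -0.06 in HD and -0.24 in LD. H4076A01 stood at -0.25 in HD and -0.01 in LD, and H4056C07 at -0.33 in HD and -0.64 in LD. The 95% intervals of all 4 covered 0 in both lines, as did those of H4024E05 and H3085G06. Of the remaining clones among the 15 with the largest differences, H4040D10 stood at -0.99 in HD and -0.74 in LD. H4066B11 stood at -1.21 in HD and -0.90 in LD, and H4038D02 at -1.01 (an HD interval that reached 0.008) and -0.83. H4017E08 stood at -0.70 and -0.71, H4058B03 at -0.69 and -0.70, H4024E05 at -0.48 and -0.57, and H3085G06 at -0.31 and -0.29.

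Under each drug taken singly, 24 h lay below 12 h in both lines for 39 of the 79 members, where 8.44% of all clones did so. Of the 48 members in array part 2, 35 did so, where 13% of the clones of that part did. Of the 31 members in array part 1, 4 did so, where 4.62% of its clones did.

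Each array had been deposited in 2 parts that hold different clones. Array part 2 held 48 members (0.529% of its 9078 tested clones) and array part 1 held 31 (0.289% of 10739). The members of the parts reached their 36 h level along different courses. In part 2 the HD medians were -0.33 for 12 h minus 6 h, -0.92 for 24 h minus 12 h and 0.05 for 36 h minus 24 h. In part 1 they were -0.39, -0.27 and -0.49. LD gave the same order, with -0.28, -0.75 and -0.14 in part 2 and -0.38, -0.19 and -0.58 in part 1. In these means over drugs, the largest step of the part 2 members lay between 12 h and 24 h and that of the part 1 members between 24 h and 36 h. Under HMBA the part 1 members took another course, with 12 h minus 6 h at -0.53 in HD and -0.43 in LD and 36 h minus 24 h at -0.02 in HD and -0.25 in LD. Under TSA their 36 h minus 24 h medians were -0.69 in HD and -0.75 in LD, and under DMSO -0.76 in HD and -0.87 in LD.

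In HD all 48 part 2 members lay below 0 between 12 h and 24 h, and 34 were lower at an unadjusted p under 0.05 in limma, where 7.91% of all clones of part 2 were. Of the 31 part 1 members, 30 lay below 0 and 2 were lower at that level, where 0.903% of all clones of part 1 were. In LD, 48 of 48 part 2 members and 24 of 31 part 1 members lay below 0, and 38 and 2 of them were lower at that level, where 6.52% of all clones were in part 2 and 2.03% in part 1. Of all clones, 5560 of 9078 in part 2 and 5768 of 10739 in part 1 lay below 0 in HD. In LD, 5115 in part 2 and 5462 in part 1 did. All clones of the parts had HD medians of -0.10 in part 2 and -0.02 in part 1, so the parts also differed, by less, for clones that are not members. The parts could differ in clones and in their handling, and these cannot be told apart here.

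**Figure D4:**
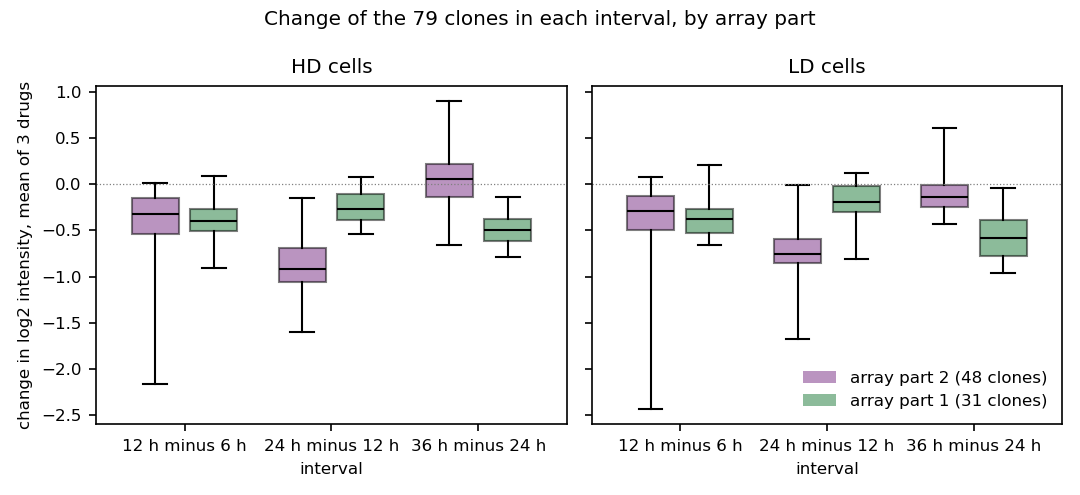
Change in log2 intensity (mean of 3 drugs, vertical axis) over the intervals 12 h minus 6 h, 24 h minus 12 h and 36 h minus 24 h for the 79 clones, with boxes for quartiles, lines for medians and whiskers for the full range, in array part 2 (purple, 48 clones) and array part 1 (green, 31 clones), in HD cells (left) and LD cells (right). In part 2 the largest step falls between 12 h and 24 h (median -0.92 in HD), while in part 1 it falls between 24 h and 36 h (median -0.49 in HD).

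The difference between the parts was not seen on every array number. On the arrays numbered 1, 3 and 4, the HD medians for 24 h minus 12 h were -1.21, -1.22 and -0.90 in part 2 and -0.14, -0.54 and -0.19 in part 1. On the arrays numbered 2 both parts stood at -0.19. Over all members the 4 array numbers gave HD medians of -0.83, -0.19, -0.80 and -0.55 and LD medians of -0.82, -0.01, -0.64 and -0.42. Without the arrays numbered 2 the rule was met by 100 clones, of which 18 lay in part 2 and 82 in part 1, and 44 were among the 79 members. Without the arrays numbered 1, 53 clones in part 2 and 54 in part 1 met it. At a threshold of -0.8, 148 clones in part 2 and 160 in part 1 met it. Without the 3 arrays that stood apart, 83 and 79 did. Part 2 has fewer tested clones (9078, against 10739 in part 1), so near-equal counts still give it the larger share. The excess of part 2 thus varied with the arrays and the threshold used. Among these alternatives it was reversed only without the arrays numbered 2.

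The drugs also gave different courses. Under TSA the members' median 12 h minus 6 h difference was 0.06 in HD and 0.15 in LD, so 12 h did not lie below 6 h. Under HMBA that difference was -0.49 in HD and -0.38 in LD, and under DMSO it was -0.68 in HD and -0.82 in LD. Between 12 h and 24 h the medians were -0.77 in HD and -0.62 in LD under TSA, -0.48 in HD and -0.41 in LD under HMBA, and -0.55 in HD and -0.68 in LD under DMSO. Between 24 h and 36 h they were -0.46 in HD and -0.40 in LD under TSA, 0.06 in HD and -0.15 in LD under HMBA, and -0.23 in HD and -0.26 in LD under DMSO. The intervals that touch 6 h or 36 h use arrays of the rule and carry no test.

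In part 1 under DMSO the median 24 h minus 12 h difference was 0.04 in HD and 0.16 in LD, so these members were no lower at 24 h there. The same members stood at -0.52 in HD and -0.47 in LD under TSA and at -0.36 in HD and -0.24 in LD under HMBA. In part 2 the medians were -0.91 in HD and -0.70 in LD under TSA, -0.65 in HD and -0.43 in LD under HMBA, and -1.26 in HD and -1.06 in LD under DMSO.

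The members were spread over the clone library, with some crowding. They came from 54 of 238 plates, and 40 of these plates held 1 member each. The 5 plates with 3 or more members were H4038 with 6, H4064 with 5, H4057 with 4, and H3088 and H4037 with 3 each, which together held 21 members. On H4038 the other 66 clones had a median 24 h minus 12 h difference of -0.44, the lowest of the 115 plates of part 2, and their 36 h minus 6 h median was -0.21. On H4064 the other 67 clones stood at -0.28 for 24 h minus 12 h and at -0.14 for 36 h minus 6 h. Over all 4203 other clones on plates that held a member, these medians were -0.05 and -0.01.

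Set against the other clones of its own plate, nearly every member lay lower. The median difference between a member and its plate for 24 h minus 12 h was -0.45, and 78 of 79 members lay below their plate. It was -0.55 in part 2, with 48 of 48 below, and -0.17 in part 1, with 30 of 31 below. The medians of plates spread with an SD of 0.13 in part 2 and 0.07 in part 1. Clones of a plate can share handling, and the part of this in the members' values was not tested. Members were chosen for large falls, so their place below the plate does not measure that part.

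**Figure D5:**
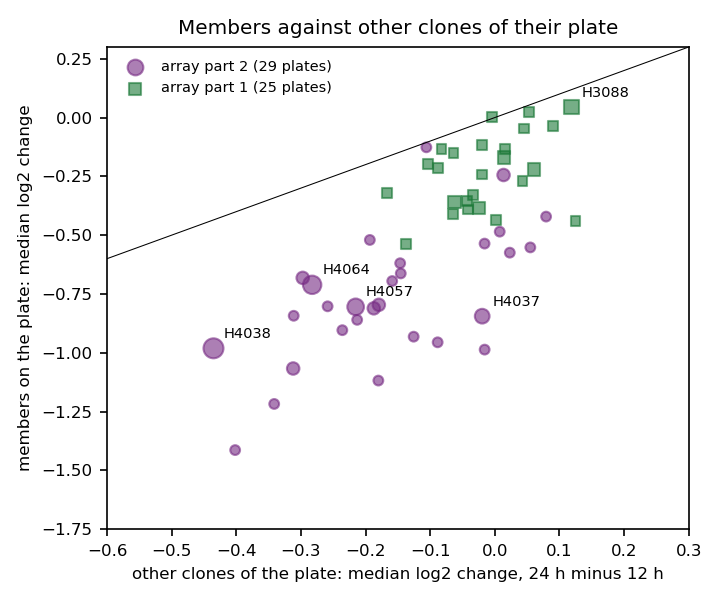
Median log2 change, 24 h minus 12 h (mean of lines and drugs), of the members on each plate (vertical axis) against that of the other clones on the same plate (horizontal axis), for 29 plates in array part 2 (purple circles) and 25 plates in array part 1 (green squares), with larger symbols for more members and the line of equal change drawn. Nearly all plates lie below the line, and H4038, with 6 members, has the lowest median of other clones at -0.44.

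The members were of middling brightness. Their level at 12 h and 24 h ranged from percentile 25.4 to percentile 95.5 of all clones, with a median of 59.1, and 50 of the 79 lay above percentile 50. Of 10 equal bins of clones by level, the lowest held 0 members and the highest held 3. Across the 19817 clones, level and the 36 h minus 6 h difference had a Pearson r of -0.37, with a median difference of 0.45 in the lowest bin and -0.19 in the highest. For 24 h minus 12 h that r was -0.07. The interquartile range of log2 intensity averaged 3.64, 3.59, 3.54 and 3.38 at 6, 12, 24 and 36 h. By drug it was 3.303, 3.57, 3.36 and 3.00 under TSA, 3.79, 3.62, 3.49 and 3.45 under HMBA, and 3.84, 3.57, 3.79 and 3.69 under DMSO, so it was narrower at 36 h than at 6 h under each drug but did not narrow at every step. Its part in the members' differences was not tested.

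HD and LD were compared on the members through the ratio on each array, after each channel was centred on its median in the file. No loess step entered this main ratio. The labels call HD the target on every array but do not settle which dye it carried on arrays 3 and 4, so the direction HD over LD is likely and not certain. Averaged over 12 h and 24 h, log2 HD over LD had a median of -0.10 over members, with 72 of 79 below 0, against 0.003 over all clones. Of all 18494 clones tested, 9069 lay below 0. In limma, 35 of 18494 clones were called (0.189%), 14 higher (0.0757%) and 21 lower (0.114%) in HD, and 0 of these were members. The balance of calls turned under several alternatives, for example to 397 higher and 102 lower with the replicate number as a block and 407 higher and 183 lower with loess and Aquantile. With that block, on whose numbers the ratios of different conditions correlated, 499 clones and 1 member were called, H3108F07 (adjusted p = 0.00854 in limma), where 2.15% of all clones were called higher. At an unadjusted p under 0.05, 10 members were lower in HD (2.44% of all clones) and 3 were higher (8.38% of all clones).

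The members at the ends of this range were H4064B10 at -0.31 and H4066B11 at -0.28, and H4056C07 at 0.32 and H3108F07 at 0.37. The lowest adjusted p among members without the block was that of H3108F07, at 0.199 in limma. By condition the member medians of log2 HD over LD ran from -0.08 at 6 h through -0.16 at 12 h and -0.30 at 24 h to -0.32 at 36 h under TSA. Under HMBA they were 0.06, -0.05, -0.10 and 0.10, and under DMSO -0.04, 0.09, -0.12 and 0.13. With arrays 3 and 4 turned, the median over members was 0.26 and 30 members were called, 27 higher and 3 lower, where 32.4% of all 18494 clones were called higher and 20.3% lower. The sign of the line difference thus rests on the orientation of these arrays. H4064B10 then read -0.26, H4066B11 0.70, H4056C07 -0.18 and H3108F07 0.13, so H4066B11 and H4056C07 changed sign.

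Whether the members' difference between 24 h and 12 h was unequal in HD and LD was tested directly. The 24 h minus 12 h difference, HD minus LD, had a median of -0.11 over members, with 64 of 79 below 0, against -0.03 over all clones. Of all 18494 clones tested, 10579 lay below 0. In limma 0 members and 0 of 18494 clones were called (0%), while 1069 clones and 1 member passed an unadjusted p under 0.05 (5.78% of all clones). That member was H4041C10, at -0.75 (95% interval -1.31 to -0.19, adjusted p = 0.668 in limma), named here after its value was seen. The median 95% interval of a member reached 0.41 to either side, so line differences smaller than that could not be seen clone by clone. With arrays 3 and 4 turned the median was 0.06.

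The drugs were compared on the mean of both lines at 12 h and 24 h. TSA minus DMSO had a median of -0.28 over members, with 51 of 79 below 0, against 0.11 over all clones, of which 8215 of 19817 lay below 0. In limma 341 clones were higher under TSA (1.72%) and 327 were lower (1.65%). Among members, 1 was higher and 2 were lower, a share near that of all clones. H4024E05 was higher under TSA, by 2.37 (95% interval 1.56 to 3.17, adjusted p = 0.0357 in limma). Its HD values under TSA were 1.15 at 12 h and 0.02 at 24 h, against -1.83 and -1.62 under DMSO, where the clone had been at 1.38 at 6 h.

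H3098H04 was lower under TSA, at -2.18 (-2.72 to -1.64, adjusted p = 0.0298 in limma), and so was H3006A11, at -2.97 (-3.93 to -2.004, adjusted p = 0.0323 in limma), which is named after its value was seen. In HD, H3098H04 read -2.36 at 12 h and -2.17 at 24 h under TSA, against -0.37 and -0.17 under DMSO. The median over members moved with the arrays used, at -0.09 without the arrays numbered 2, -0.10 without those numbered 4 and -0.37 without the 3 arrays that stood apart. The number of clones called was 668, against 97 without the arrays numbered 4, 171 without those numbered 1 and 1223 without those numbered 3, and the number of members called was 6 without those numbered 3.

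HMBA minus DMSO had a median of -0.53 over members, with 68 of 79 below 0, against 0.01 over all clones, of which 9816 of 19817 lay below 0. In limma 0 of 19817 clones were called (0%), while 4672 passed an unadjusted p under 0.05. At that level 34 members were lower under HMBA, where 13.6% of all clones were, and 2 were higher, where 9.94% were. TSA minus HMBA had a median of 0.30 over members, with 62 of 79 above 0, against 0.10 over all clones, of which 11808 of 19817 lay above 0. In limma 3 clones were called (0.0151%), all higher under TSA and none a member, and 13 members were higher at an unadjusted p under 0.05, where 12.8% of all clones were. Without the arrays numbered 3 limma called 322 clones and 6 members for HMBA minus DMSO and 134 clones for TSA minus HMBA, and without those numbered 2 it called 22 clones for TSA minus HMBA. With the dimmest 25% of clones left out it called 30 members for HMBA minus DMSO, 28 lower and 2 higher, where 10.1% of 14863 clones were lower and 5.61% higher. For TSA minus DMSO it then called 19 members, 15 lower and 4 higher, where 10.2% of clones were lower and 8.55% higher.

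Membership itself moved with the processing. Of the 79 clones, 15 met the rule under 8 alternatives that recompute it with other normalizations, with arrays 3 and 4 turned or with 1 array number left out, and 10 of these 15 lay in part 2 and 5 in part 1. They were H4014B07, H4022C07, H4030E03, H4038C01, H4038D02, H4040D10, H4057G07, H4057H03, H4058B03 and H4060H11 in part 2, and H3002A01, H3014F07, H3085G06, H3088E08 and H3091A08 in part 1, all named after their values were seen. A further 19 members met it under 7 of the 8 alternatives, and 15 members met it under 3 or fewer. H4064C11, H4076A01 and H4056C07, at the top of the list by size, were not among the 15.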

How the data were processed

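Total RNA of HD and LD cells was hybridised together on 48 arrays, 4 technical arrays for each of 12 conditions. Per the file headers, the authors deposited an intensity for the control (LD) and for the target (HD) of each cDNA clone, in 2 parts per array, with no background column and none at or below 0. How the clones listed on an array (19237 to 20581) were chosen, and which scanner was used, is not stated in the labels or headers. The number of arrays limits the precision. A further table of the authors held deposited log2 ratios, which correlated with the loess ratios computed here at r between 0.987 and 0.999 across clones and served as an alternative only. Column medians of that table lay between -0.04 and 0.0205. This comparison showed log2 values with the target column over the control column. Which line that is rests on the labels, and the normalization stays unknown here.

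Single-channel values were log2 intensity minus the channel's median in the file, averaged over the arrays of a condition, and an array without a value for a clone was left out of that mean. Ratios were the HD minus LD difference of these centred values on each array. They were averaged over arrays 1 and 2 and over arrays 3 and 4 before the mean. These pairs differ in channel order per the labels, and their raw ratios correlated between -0.749 and -0.145 across clones. Loess within each part of each array (span 0.3) entered only the alternative with loess and Aquantile. The loess ratios set against the authors' log2 ratios belong to that alternative. The 6 conditions at 12 h and 24 h were fitted with drug and time as additive terms in limma 3.58.1 under R 4.3.3, two-sided, with Benjamini-Hochberg adjustment over all clones tested and a threshold of 0.05. The spread so measured is that between conditions.

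The members and lists were chosen with earlier results of these data known. Named clones are the 15 members with the largest mean difference between 36 h and 6 h, the 5 with the lowest adjusted p for 24 h minus 12 h in each line, and the 3 nearest to the threshold on each side. Gene and marker lists could not be applied, since nothing used here pairs clones with genes. Alternatives were another normalization, an offset of 50, stricter filters, turned arrays, each array number, drug or array part left out, all 12 conditions in the fit, a replicate block, and other thresholds. Array parts alone, and the 3 arrays that stood apart left out, were added after the data had been seen.

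In simulated data of 19817 clones for 24 h minus 12 h in HD, changes of 0.5 and of 1 on the log2 scale were estimated at a median of 0.49 and 1.02, and 0% of the 100 clones of either size were called, with 0 false calls. Deviations of arrays from the mean of their condition were set against each other between conditions. Arrays with the same number had a median r between 0.25 and 0.39 by channel and array number, and a lowest r of -0.14 over pairs. For the ratios the median r was 0.64 to 0.65 and the lowest 0.27. Arrays with the same number also share their channel order per the labels. Whether the ratios correlate by number beyond that order was not tested. In HD, array 1 minus array 2 had a median r of -0.002 between conditions, and array 3 minus array 4 had a median r of 0.0098. Apart from channel order, the labels do not say what the numbers share.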

Additional observations from a re-analysis of the deposited data

Results flagged for a closer look

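Within conditions, 84 sets of 4 arrays were examined for an array that stood apart from the other 3. The nominal rate assumed gives about 4.2 for independent sets. These sets share arrays and spots, so that number does not measure chance here. Of the 84 sets, 10 held such an array. For the median over all 79 members these were HD at DMSO 24 h on array 3 (-0.87, against 0.72 to 0.96 on the others), LD at HMBA 36 h on array 4 (0.67, against -0.18 to -0.15) and LD at TSA 36 h on array 2 (0.33, against -0.14 to -0.06).

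Among single clones, H4040D10 stood apart in HD at DMSO 24 h on array 3 (-3.96, against -0.28 to 0.31) and in LD at HMBA 36 h on array 4 (0.46, against -0.85 to -0.64). H4076A01 did so in LD at DMSO 12 h on array 2 (2.43, against -0.75 to -0.37) and in HD at HMBA 36 h on array 4 (3.201, against -1.84 to -1.03). H4056C07 did so in HD at HMBA 6 h on array 3 (0.21, against 2.28 to 2.63) and in LD at HMBA 24 h on array 1 (-0.43, against 2.02 to 2.38). H4064C11 did so in HD at TSA 24 h on array 3 (-1.71, against -0.69 to -0.64). Of the 10, 5 lay on 2 of the 3 arrays on which the members stood apart as a group, DMSO 24 h array 3 and HMBA 36 h array 4. These 5 include the group medians that defined those arrays, and the single clones enter those medians, so the overlap is partly built in. The cause was not tested.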

How the results depend on the processing

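The medians over members for 24 h minus 12 h stayed below 0 in HD and LD under every alternative run. Of the values of single named clones under alternatives, 601 kept direction and side of the threshold, 36 passed it only under the alternative, and 23 changed sign. The fit has 2 residual degrees of freedom, and the cause of the shifts was not tested. Counts below are of clones called in limma at an adjusted p of 0.05, out of all tested and then out of members.

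With an offset of 50, the counts were 38 and 12 for 24 h minus 12 h in HD, 31 and 6 in LD, 4 for HD minus LD in that difference, 409 and 2 for log2 HD over LD, 3633 and 21 for TSA minus DMSO, 3642 and 34 for HMBA minus DMSO, and 1194 and 2 for TSA minus HMBA. Without the dimmest 25% of clones they were, in the same sequence, 78 and 21, 37 and 8, 55 and 1, 483 and 3, 2784 and 19, 2338 and 30, and 1293 and 5. With all 4 arrays required, 12 and 2 were called in LD, 2 for HD minus LD, 220 and 1 for log2 HD over LD, 2490 and 13 for TSA minus DMSO, 1976 and 18 for HMBA minus DMSO, and 958 and 3 for TSA minus HMBA.

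With loess and Aquantile, 9 were called for HD minus LD, 590 and 1 for log2 HD over LD, 2602 and 14 for TSA minus DMSO, 2256 and 21 for HMBA minus DMSO, and 885 and 3 for TSA minus HMBA. On the authors' deposited log2 table, 6 were called for HD minus LD and 594 and 1 for log2 HD over LD. With all 12 conditions in the fit, 648 and 1 were called for log2 HD over LD, 5057 and 24 for TSA minus DMSO (member median -0.49), 3042 and 22 for HMBA minus DMSO, and 2500 and 1 for TSA minus HMBA (member median 0.083), but these fits use the arrays of the rule.

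With arrays 3 and 4 turned, 16 and 6 were called for 24 h minus 12 h in HD and 9746 and 30 for log2 HD over LD (member median 0.26, with 5998 clones higher and 3748 lower), while the member median of HD minus LD was 0.059. Without HMBA, 1 was called in HD, 30 for HD minus LD and 95 for log2 HD over LD. Without TSA, 1 was called in HD, 7 in LD, 668 and 1 for HD minus LD, and 568 for log2 HD over LD. Without DMSO, 0 were called for log2 HD over LD. Higher calls outnumbered lower ones for log2 HD over LD with the offset (314 and 95), loess and Aquantile (407 and 183), the authors' deposited log2 table (428 and 166), all 4 arrays (156 and 64), no dim clones (349 and 134), all 12 conditions (495 and 153), without HMBA (64 and 31) and without replicate 2 (48 and 36), and lower calls did so without TSA (196 higher and 372 lower) and without array numbers 1, 3 or 4.

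In the fit with a replicate block, where technical arrays are the units, 58 were called in HD (52 higher and 6 lower) and 4 in LD, 499 (397 higher and 102 lower) and 1 for log2 HD over LD, 4646 and 12 for TSA minus DMSO, 3985 and 21 for HMBA minus DMSO, and 2486 and 2 for TSA minus HMBA. No member was called in HD or LD for 24 h minus 12 h under the replicate block. Ratios of same-numbered arrays correlated between conditions, but these arrays share their channel order too. Whether the number adds to that order was not tested for the ratio. In HD, array 1 minus array 2 correlated between conditions with a median r of -0.002.

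Array part 2 alone gave member medians of -0.92 in HD, -0.75 in LD and -0.13 for TSA minus DMSO, and array part 1 alone gave -0.27, -0.19 and -0.37. Without the 3 arrays that stood apart, 28 clones were called for TSA minus HMBA and the member median of TSA minus DMSO was -0.37.

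Leaving out each array number in turn gave member medians between -0.76 and -0.53 in HD and between -0.68 and -0.40 in LD for 24 h minus 12 h, between -0.40 and -0.086 for TSA minus DMSO, and between 0.24 and 0.44 for TSA minus HMBA. Clones called ranged between 19 and 84 for log2 HD over LD, between 97 and 1223 for TSA minus DMSO (2 to 6 members), between 0 and 322 for HMBA minus DMSO (0 to 6 members), and between 1 and 134 for TSA minus HMBA.

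The rule was met by 49 clones with an offset of 50, by 50 with the median taken over clones on every array, by 162 without the 3 arrays that stood apart, by 308 at a threshold of -0.8 and by 14 at -1.2. Leaving out an array number gave 93 to 107 clones.

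Among named clones, the HD difference of H3088E08 for 24 h minus 12 h was 0.10 with loess and Aquantile, 0.020 with the offset, 0.26 without HMBA, 0.11 without TSA and 0.078 without the 3 arrays, and between -0.31 and 0.24 without an array number. Its LD difference was -0.46 without DMSO and between -0.29 and 0.34 without an array number. H3098H04 in HD stood at 0.19 without HMBA and 0.038 without the 3 arrays, and between -0.42 and 0.16 without an array number. H4076A01 stood in HD at 0.018 without DMSO and 0.11 without HMBA, and between -0.54 and 0.12 without an array number. In LD it stood at 0.63 without DMSO and 0.19 without HMBA, and between -0.091 and 0.17 without an array number. H4056C07 stood in HD at 0.45 without TSA, and without an array number between -0.61 and 0.15 in HD and between -1.15 and 0.066 in LD.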
